A study of Mus musculus with 16 samples.

Results

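The genes described here are 9 serine proteases and protease inhibitors of epithelial cells, Wfdc3, Wfdc2, Slpi, Prss8, St14, Spint1, Spint2, Tmprss2 and Hgfac. They were found by gene symbol among 23279 genes measured in mouse liver, each by 1 probe set, and their Entrez numbers are 71856, 67701, 20568, 76560, 19143, 20732, 20733, 50528 and 54426 in the same order. Wfdc3 and Prss8 were chosen by their tumour values, since earlier results of these data showed both higher in every tumour, so their tumour values are given as a description without a test. The other 7 were taken as members of the same protease and inhibitor families, and their tumour values were tested.

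The study compared liver tumours, the non-tumoral liver beside them and control liver in male mice aged 16 months, with 1 single-channel oligonucleotide array per sample. The 3 control mice (numbers 10, 11 and 12) are labelled as not deleted, and the labels do not say which Axin1 or Cre alleles they carried. Tumour-bearing mice came from a cross of Axin1 fl/fl mice with Alfp-Cre mice, which express Cre recombinase in hepatocytes of the embryo, so cells in which Cre was never active keep Axin1; which liver cells these are was not measured. Adjacent liver came from 5 such mice (121, 123, 124, 1931 and 81), and 8 tumours came from 6 (121, 123, 124, 81, 90 and 93), with 3 tumours of mouse 121 that were averaged before any test. Tumour and adjacent liver of the same animal were available for 4 mice.

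Serine proteases cut proteins after particular residues and are held in check by inhibitors that sit in their active site. In epithelia, matriptase, encoded by St14, and prostasin, encoded by Prss8, form a membrane-bound pair that acts on sodium channels, on junctions and on other proteases, and the Kunitz inhibitors HAI-1 and HAI-2, encoded by Spint1 and Spint2, restrain both. Secreted inhibitors with a whey acidic protein (WAP) domain, such as Slpi, act outside the cell, mostly against proteases of neutrophils. In the liver, Hgfac, a protease made by hepatocytes, activates hepatocyte growth factor, and Spint1 can inhibit it.

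Wfdc3, Wfdc2 and Slpi lie on chromosome 2 among other WAP genes, and Spint1 lies on the same chromosome. Prss8 and Spint2 are on chromosome 7, St14 on chromosome 9, Tmprss2 on chromosome 16 and Hgfac on chromosome 5. The 250 bases before the start of 7 of the 9 genes were read from RefSeq (GRCm38.p6), and those of the 3 members with the largest tumour differences among them are shown here, 5′ to 3′ on the gene's own strand. All 3 genes are on the minus strand, at chr2:164743268-164743517 for Wfdc3, chr2:164356508-164356757 for Slpi and chr16:97611196-97611445 for Tmprss2. Capitals mark the core motif of TCF/LEF factors, the partners of beta-catenin, which Axin1 holds down in normal cells.
Wfdc3: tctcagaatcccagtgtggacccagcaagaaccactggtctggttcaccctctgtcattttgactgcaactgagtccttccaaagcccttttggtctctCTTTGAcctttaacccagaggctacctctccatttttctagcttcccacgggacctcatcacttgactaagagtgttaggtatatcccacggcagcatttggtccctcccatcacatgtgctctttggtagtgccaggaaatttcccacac
Slpi: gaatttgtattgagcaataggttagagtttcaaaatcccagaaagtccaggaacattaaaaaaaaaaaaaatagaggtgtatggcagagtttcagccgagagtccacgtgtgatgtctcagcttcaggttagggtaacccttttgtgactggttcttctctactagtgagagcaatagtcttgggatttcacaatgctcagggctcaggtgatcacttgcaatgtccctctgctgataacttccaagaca
Tmprss2: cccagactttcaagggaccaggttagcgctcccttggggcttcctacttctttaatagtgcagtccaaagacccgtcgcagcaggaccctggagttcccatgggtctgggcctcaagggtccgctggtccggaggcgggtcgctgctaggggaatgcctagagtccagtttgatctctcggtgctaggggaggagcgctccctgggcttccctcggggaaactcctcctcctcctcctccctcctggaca
The core was searched as CTTTGA or CTTTGT on both strands. Among the 7 members Wfdc3 alone held it, as CTTTGA on the gene's strand, 151 bases before the start. The same search hit 27.6% of 32851 mouse windows of this length, so a match in 1 window is common. The AP-1 motif TGANTCA, also searched on both strands, was in none of the 7 and in 6.75% of all windows. A match describes letters only, and binding was not measured.

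The arrays had medians between 4.37 and 4.50 on the log2 scale, and their number limits the precision of every value. Axin1, the deleted gene, differed from control by -1.06 in adjacent liver and by -0.83 in tumours on the log2 scale, and neither difference passed over all genes (limma, adjusted p = 0.255 and adjusted p = 0.102). Albumin (Alb), the defining hepatocyte product, lay between 11.89 and 12.58 on every array, so all samples held hepatocyte RNA. Control 10 stood apart from the other controls: its neutrophil markers averaged 6.15 against 3.73 in the lowest control, and S100a8, a neutrophil calcium-binding protein, reached 8.71 there. Its macrophage markers averaged 8.92, against 5.64 to 7.26 on the other arrays. Several comparisons with control are therefore also given without it, and those given only once can also depend on it. In whole tissue, fewer cells of a type and less RNA per cell cannot be told apart.

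Wfdc3, a little-studied WAP domain protein, was low in every liver without a tumour. Its log2 value was 3.45, 4.32 and 3.88 in control mice 10, 11 and 12. Adjacent livers of mice 121, 123, 124, 1931 and 81 read 4.41, 3.77, 4.61, 4.05 and 4.0. These 8 livers stayed below the median of all values, 4.43, except for adjacent liver 124. The 3 tumours of mouse 121 read 7.0, 7.72 and 6.30, and those of mice 123, 124, 81, 90 and 93 read 6.03, 5.66, 5.84, 6.25 and 6.59. The lowest tumour was thus above the highest liver without tumour, and the groups did not overlap. Means over mice were 6.23 ± 0.50 (SD, n = 6) for tumours, 4.17 ± 0.33 (SD, n = 5) for adjacent liver and 3.88 ± 0.44 (SD, n = 3) for control liver. Tumours differed from adjacent liver by 2.06 (SE 0.24, 95% interval 1.55 to 2.57), a fold of 4.18, and from control by 2.35 (SE 0.28, 95% interval 1.75 to 2.94), a fold of 5.08; without control 10 the latter was 2.13. Adjacent and control liver differed by 0.28 (SE 0.29), within the spread between mice (limma, adjusted p = 0.999).

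Prss8, the membrane-anchored protease prostasin, had the tightest tumour values of those among the 9 genes with a tumour difference above 1. Control livers read 5.19, 5.37 and 5.83 in mice 10, 11 and 12. Adjacent livers of mice 121, 123, 124, 1931 and 81 read 5.60, 5.79, 5.65, 6.19 and 5.82. Adjacent liver overlapped control, with 1931 the highest of the 8. The tumours of mouse 121 read 6.80, 6.93 and 6.76, and those of mice 123, 124, 81, 90 and 93 read 6.92, 7.45, 6.51, 6.76 and 6.89. Every tumour again lay above every other liver, here by a narrower gap than for Wfdc3. Group means were 6.89 ± 0.31 (SD, n = 6), 5.81 ± 0.23 (SD, n = 5) and 5.46 ± 0.33 (SD, n = 3) in tumour, adjacent and control liver. The tumour difference was 1.08 from adjacent liver (SE 0.17, 95% interval 0.72 to 1.44), a fold of 2.12, and 1.43 from control (SE 0.20), a fold of 2.7, or 1.30 without control 10. Adjacent liver differed from control by 0.35 (SE 0.20), which did not pass (limma, adjusted p = 0.999). Over all genes, 67, or 0.288%, had every tumour array above every control and adjacent array; Wfdc3 and Prss8 are among them by choice.

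**Figure D1:**
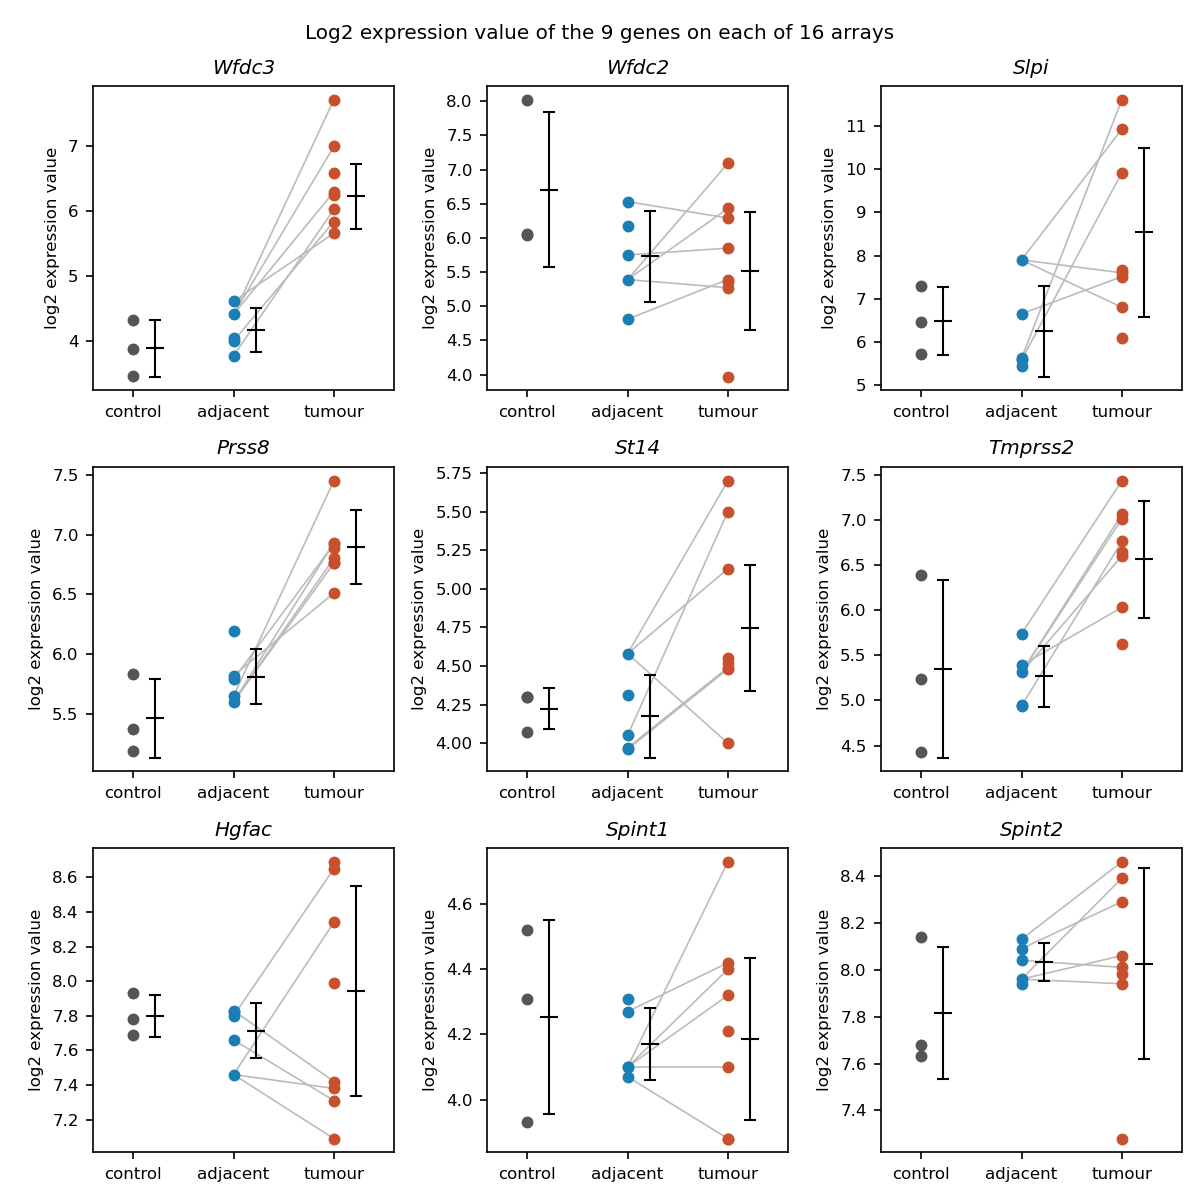
Log2 expression value (vertical axis, own scale per gene) of the 9 genes on each of 16 arrays, by group; grey lines join a tumour to adjacent liver of the same mouse, and the bars beside the points are the mean ± SD over mice. For Wfdc3 and Prss8 all tumours lie above all other livers, Slpi tumours spread from 6.08 to 11.61, and Spint1 and Spint2 overlap fully between groups.

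Tmprss2, a transmembrane serine protease of epithelia, had the tested difference from adjacent liver with the smallest p of the 7. Its log2 value was 6.39, 5.24 and 4.43 in control mice 10, 11 and 12, a wide spread with mouse 10 on top. Adjacent livers of mice 121, 123, 124, 1931 and 81 lay close together at 5.31, 5.39, 5.74, 4.95 and 4.94. Tumours of mouse 121 read 7.06, 7.01 and 6.60, and those of mice 123, 124, 81, 90 and 93 read 6.03, 7.43, 6.76, 6.64 and 5.62. Of 6 tumour mice, 5 were above every adjacent liver and tumour 93 was not. The mean difference was 1.29 (SE 0.34, 95% interval 0.56 to 2.03), a fold of 2.45, and did not pass over all genes (limma, adjusted p = 0.0988). The two-sided exact permutation test gave p = 0.00866, or 0.199 after adjustment over 23 tests; the smallest p of this design is 0.00216. In the fit with a random replicate block for mouse the difference was 1.38 and passed (adjusted p = 0.045), and in the fit of the 4 paired mice with a fixed block it was 1.43 and did not (adjusted p = 0.112). Without tumour 93 it was 1.48 and passed (adjusted p = 0.0299). Over all alternatives the adjusted p ran from 0.0299 to 0.231. Against control the difference was 1.2 (SE 0.40, adjusted p = 0.225), or 1.72 without control 10.

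St14, the matriptase gene and partner of Prss8, was near the median of all values in livers without tumour. Control mice 10, 11 and 12 read 4.30, 4.07 and 4.30, and adjacent livers of mice 121, 123, 124, 1931 and 81 read 4.58, 3.97, 3.96, 4.31 and 4.05. Tumours of mouse 121 differed among themselves, at 5.70, 4.0 and 5.13. Those of mice 123, 124, 81, 90 and 93 read 4.49, 4.48, 5.5, 4.52 and 4.55. Only the unnumbered tumour and tumour 3 of mouse 121 and the tumour of mouse 81 exceeded 5 among all 16 arrays. Tumours differed from adjacent liver by 0.57 (SE 0.18, 95% interval 0.18 to 0.97) and from control by 0.53 (SE 0.21). Neither passed (limma, adjusted p = 0.152 and adjusted p = 0.329). Tumour and control mice did not overlap once the tumours of mouse 121 were averaged, which held for 5.18% of all genes in that comparison. The exact permutation p was 0.0238 against adjacent liver and 0.0595 against control, both 0.274 after adjustment over 23 tests.

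Slpi, the secretory leukocyte protease inhibitor, had the largest mean difference from adjacent liver of the 9 and the widest spread among tumours. Control mice 10, 11 and 12 read 7.29, 6.46 and 5.71, and adjacent livers of mice 121, 123, 124, 1931 and 81 read 7.90, 5.58, 6.65, 5.45 and 5.62. Tumours of mouse 121 read 10.93, 6.80 and 7.60. Those of mice 123, 124, 81, 90 and 93 read 9.92, 7.51, 11.61, 7.67 and 6.08. The tumour of mouse 81, the unnumbered tumour of mouse 121 and the tumour of mouse 123 were the highest arrays, while tumour 93 and tumour 2 of mouse 121 lay within the range of control livers. The mean was 8.54 ± 1.96 (SD, n = 6) in tumours against 6.24 ± 1.05 (SD, n = 5) in adjacent liver. The difference of 2.30 (SE 0.79, 95% interval 0.60 to 3.99), a fold of 4.92, did not pass over all genes (limma, adjusted p = 0.176), and its exact permutation p was 0.0368, or 0.274 after adjustment over 23 tests. Against control it was 2.05 (SE 0.93, adjusted p = 0.383), or 2.45 without control 10.

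Wfdc2, the WAP protein known as HE4, was the only member with lower means in both tumour comparisons by more than 0.1. Control mice 10, 11 and 12 read 8.02, 6.06 and 6.04, so mouse 10 stood well above the other controls. Adjacent livers of mice 121, 123, 124, 1931 and 81 read 5.39, 6.53, 4.81, 6.17 and 5.75. Tumours of mouse 121 read 6.43, 5.27 and 7.09, and those of mice 123, 124, 81, 90 and 93 read 6.29, 5.39, 5.85, 3.97 and 5.35. The groups overlapped, and tumour 90 was the lowest array. Tumours differed from control by -1.19 (SE 0.53, adjusted p = 0.379), and by -0.53 without control 10. Adjacent liver differed from control by -0.98 (SE 0.55, adjusted p = 0.999), and by -0.32 without control 10. Against adjacent liver the difference was -0.21 (SE 0.46, 95% interval -1.19 to 0.77, adjusted p = 0.874), and it was 0.10 without tumour 90. The value in control 10 goes with its high neutrophil and macrophage markers, whose part in the result was not tested.

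Hgfac, the activator of hepatocyte growth factor, did not differ by group beyond its spread, but its tumour values spread widely. Control mice read 7.69 to 7.93 and adjacent livers 7.46 to 7.83. The tumours of mouse 121 read 8.34, 7.09 and 7.38, and those of mice 123, 124, 81, 90 and 93 read 8.65, 7.31, 7.42, 8.69 and 7.99. Tumours lay on both sides of the livers without tumour: the unnumbered tumour of mouse 121 and those of mice 123, 90 and 93 were above all of them, and the other 4 below. The mean difference from adjacent liver was 0.23 (SE 0.24, 95% interval -0.27 to 0.73, adjusted p = 0.699).

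Spint1 and Spint2, the inhibitors of matriptase and prostasin, had mean differences near 0 between tumour and adjacent liver. Spint1 read 3.93 to 4.52 in control, 4.07 to 4.31 in adjacent liver and 3.88 to 4.73 over the 8 tumours, below or near the median of all values. Tumour minus adjacent was 0.01 (SE 0.13, 95% interval -0.27 to 0.30, adjusted p = 0.975), and its sign turned to -0.01 with quantile normalization and to -0.02 with median centring. Spint2, the more widely expressed inhibitor, read 7.63 to 8.14 in control, 7.94 to 8.13 in adjacent liver and 7.28 to 8.46 over the 8 tumours, with tumour 90 the lowest. Its difference was -0.01 (SE 0.18, 95% interval -0.39 to 0.37, adjusted p = 0.989), and with quantile normalization it was 0.00. These intervals leave room for a mean change of up to 0.30 for Spint1 and 0.39 for Spint2 between tumour and adjacent liver. Against control Spint2 differed by 0.21 (95% interval -0.23 to 0.65, limma, adjusted p = 0.729), or 0.37 without control 10. Spint1 differed from control by -0.07 (95% interval -0.40 to 0.27, adjusted p = 0.903), or -0.23 without control 10.

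**Figure D2:**
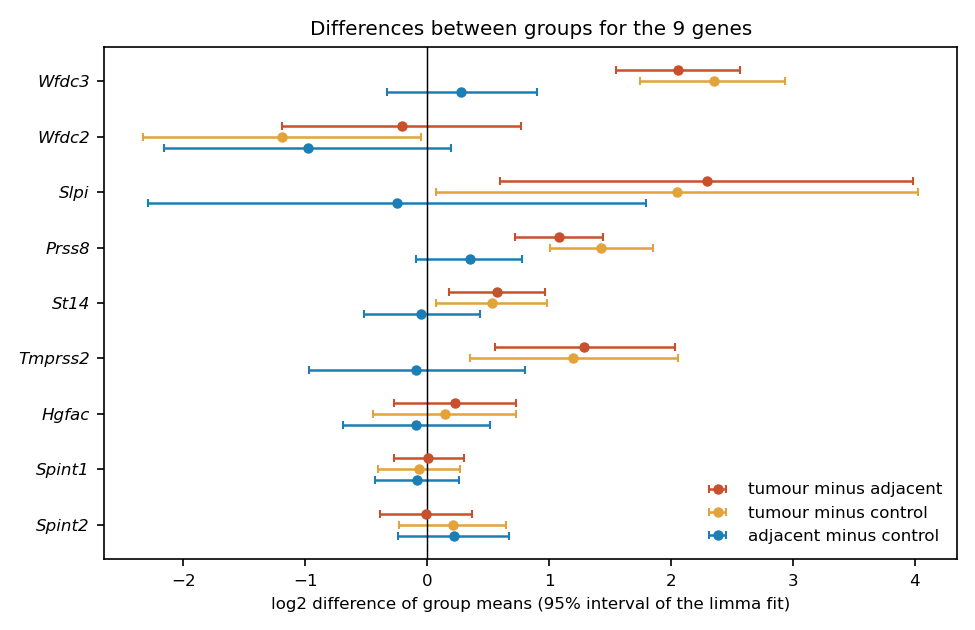
Log2 difference of group means (horizontal axis) of the 9 genes in 3 comparisons; points are the limma estimates and bars their 95% intervals. Against adjacent liver Slpi, Tmprss2 and St14 are at 2.30, 1.29 and 0.57 and the intervals of Wfdc2, Hgfac, Spint1 and Spint2 span 0; Wfdc3 and Prss8 were chosen by their tumour values, and their intervals serve as a description.

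Of the 7 genes not chosen by their tumour values, 5 had a higher mean in tumours than in adjacent liver, with a median difference of 0.23 against -0.03 over all genes, of which 44% were higher. Of these 7, 0 passed at an adjusted p of 0.05 and 3 had an unadjusted p under 0.05, where 36 genes, or 0.155% of all, passed (33 higher, 3 lower) and 3556, or 15.3%, had an unadjusted p under 0.05. That count of 36 moved with the values and the model used. It was 743 without tumour 93, 206 with a random replicate block for mouse and 0 with a fixed one, where limma gave 3145 genes at an unadjusted p under 0.05. Each gene named here as passing without tumour 93 did so among those 743 genes, or among 242 in tumour minus control. Passing was thus far more common there than in the main fit. Tumour and adjacent mice did not overlap for 2.23% of all genes and for none of the 7; Wfdc3 and Prss8, which did not overlap, were chosen by these values. Against control 5 of the 7 were higher, with a median of 0.21 against -0.04 over all genes, of which 42.2% were higher. There 0 of 7 passed and 4 had an unadjusted p under 0.05, with 6 genes, or 0.0258%, passing over all genes and 2917, or 12.5%, at an unadjusted p under 0.05. Both comparisons use the same tumours, so they do not support each other independently. Between adjacent and control liver 3 of 9 were higher, with a median of -0.08 against -0.01 over all genes, and limma's adjusted p was 0.999 for each. None of the 9 had an unadjusted p under 0.05 there, and over all genes 0% passed, with 1059 at an unadjusted p under 0.05 and 4.22% of genes without overlap. Tmprss2 and Slpi were lower in adjacent than in control liver by their means (-0.09 and -0.25), and without control 10 both signs turned, to 0.43 and 0.16.

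Within the 4 mice that gave both tissues, with the 3 tumours of mouse 121 averaged, 3 of the 7 genes not chosen by their tumour values were higher in the tumour of every mouse, as were 9.97% of all genes. They were Tmprss2, by 1.43 ± 0.54 (SD, n = 4), Slpi, by 2.93 ± 2.67, and St14, by 0.71 ± 0.49. Single tumours of mouse 121 fell short of their own adjacent liver: Slpi was at -1.10 in tumour 2 and -0.30 in tumour 3, and St14 at -0.58 in tumour 2. Wfdc3 was higher by 1.94 ± 0.66 and Prss8 by 1.21 ± 0.46, in every mouse by choice. The smallest rise of Wfdc3 was 1.06, in mouse 124, whose tumour had the largest difference of Prss8, 1.80. Mouse 81 had the smallest Prss8 difference, 0.69, and the largest for Slpi, 5.99, Tmprss2, 1.82, and St14, 1.44. So the mice were not ordered alike for the 5 genes. Wfdc2, Spint1 and Spint2 were higher in 3 of 4 mice and Hgfac in 2 of 4, each with a mean difference within 1 SD of 0 except for Spint2, at 0.16 ± 0.15.

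**Figure D3:**
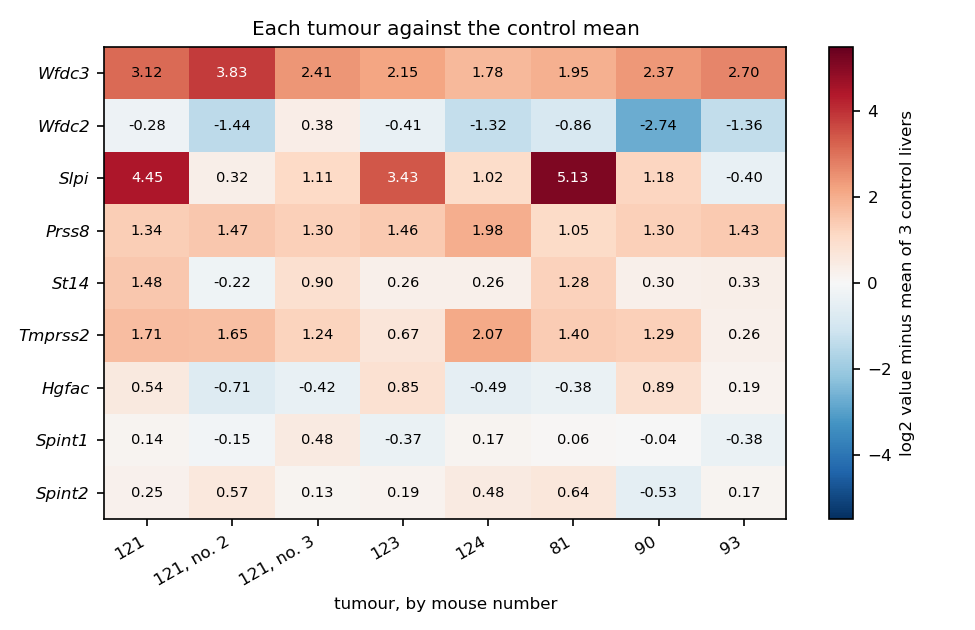
Each of 8 tumours (columns, by mouse number) minus the mean of 3 control livers for each of the 9 genes (rows); colour and printed number give the log2 difference. Rows Wfdc3 and Prss8 are positive throughout, from 1.78 to 3.83 and from 1.05 to 1.98, while Slpi runs from -0.40 to 5.13 and Wfdc2 from -2.74 to 0.38.

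The 3 tumours of mouse 121 showed how far tumours of 1 animal can differ. Their Prss8 values had an SD of 0.09 against 0.34 among the other 5 tumour mice. Their Slpi values had an SD of 2.19, the same as among the other mice, with a range of 4.13 against 5.53. St14 and Wfdc3 had a wider spread inside mouse 121 (SD 0.86 and 0.71) than among the other mice (0.44 and 0.36), and Tmprss2 a narrower one (0.25 against 0.70). Tumour 2 of this mouse had the highest Wfdc3 of all arrays, 7.72, and the lowest St14 of all tumours, 4.0, with Slpi 1.10 below its own adjacent liver. With 3 tumours of 1 mouse these are descriptions only.

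Of the genes beside Wfdc3 on its chromosome, 10 protein-coding neighbours (5 on each side in RefSeq order) were measured and 0 passed. Their differences between tumour and adjacent liver ran from -0.19 to 2.26. The highest was Ube2c, a ubiquitin-conjugating enzyme of mitosis (adjusted p = 0.0613), followed by Dnttip1 at 0.61, while the inhibitor genes Spint5 and Wfdc13 were at -0.04 and -0.11. Around Slpi 10 neighbours ran from -0.41 to 0.23, and around Prss8 9 ran from -0.38 to 0.74, again with 0 passing. Kat8, whose RefSeq model overlaps that of Prss8, was at -0.38, opposite in sign to Prss8.

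By mean absolute difference of gene-centred log2 values over the 14 mouse-and-tissue values, leaving out predicted or clone-named genes, the 3 genes most like Wfdc3 were Mfge8 at 0.39, App at 0.45 and Ckap2 at 0.49. Mfge8, a secreted glycoprotein that bridges cells to dying neighbours, averaged 7.60 ± 0.68 in tumours and 5.78 ± 0.35 in adjacent liver. It was picked for its likeness to Wfdc3, so its higher tumour values follow from that choice. The 3 most like Prss8 were Tafa2 at 0.29, Rnf128 at 0.31 and Ccdc120 at 0.31. Wfdc3 and Prss8 themselves were 0.60 apart. With predicted or clone-named genes again left out, Prss8 had rank 58 by likeness to Wfdc3.

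The other WAP domain genes did not follow Wfdc3 as a group. Many of them had means below the median of all values, 4.43, in all 3 groups, and a difference near 0 there does not show stable expression. Of 19 measured, 0 rose and 0 fell between adjacent liver and tumour, 8 had a higher mean, 2 had an unadjusted limma p under 0.05, against 15.3% of all genes, and the median was -0.01. The largest differences were those of Wfdc15b, 1.82 (SE 0.92, adjusted p = 0.371), and Wfdc12, 1.70 (SE 0.83, adjusted p = 0.349). The 2 with an unadjusted p under 0.05 were Wfdc16 and Wfdc21, both named after their values were seen. They were at 1.08 (SE 0.35, adjusted p = 0.154) and -1.15 (SE 0.47, adjusted p = 0.257). Wfdc16 passed without tumour 93 (1.28, adjusted p = 0.0488). Tumour by tumour, Wfdc15b read 7.96 in the unnumbered tumour of mouse 121, 8.63 in tumour 123 and 8.33 in tumour 81. Its values in tumours 2 and 3 of mouse 121 and in tumours 124, 90 and 93 were 4.27, 4.86, 3.06, 4.44 and 3.67. The 3 tumours with high Wfdc15b were the 3 with the highest Slpi, an observation made after the values were seen and without a test. Wfdc12 was high in tumours 123 and 81, at 8.45 and 8.94, and read 4.74 in the unnumbered tumour of mouse 121 and 3.87 to 5.13 in the others. Wfdc3 showed no such split, with 7.0, 6.03 and 5.84 in the unnumbered tumour of mouse 121 and tumours 123 and 81. Controls 10, 11 and 12 read 5.71, 5.77 and 3.72 for Wfdc15b and 4.61, 6.31 and 4.49 for Wfdc12. Against control, Wfdc15b differed by 0.57 (SE 1.08, limma, adjusted p = 0.879) and Wfdc12 by 0.74 (SE 0.97, adjusted p = 0.811).

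**Figure D4:**
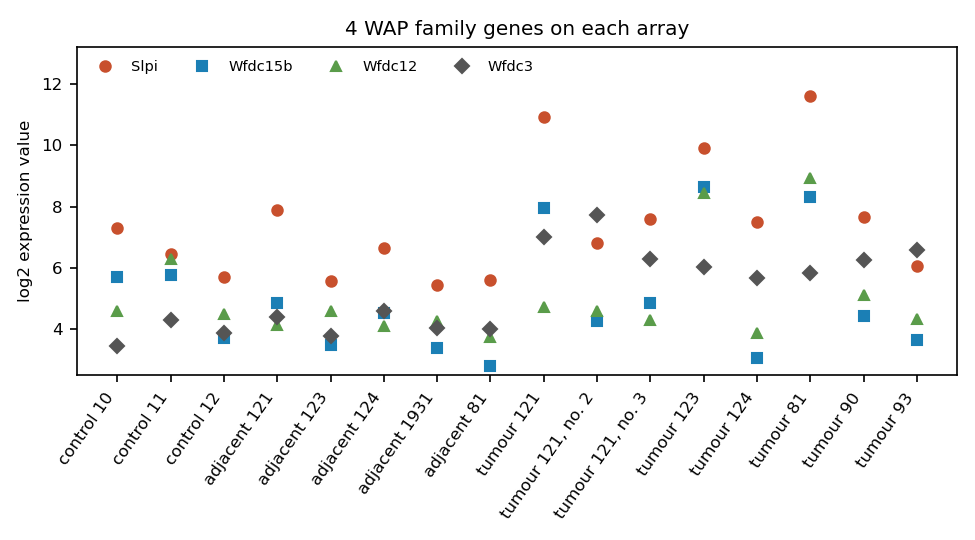
Log2 expression value (vertical axis) of Slpi, Wfdc15b, Wfdc12 and Wfdc3 on each of 16 arrays (horizontal axis, group and mouse number); heights are compared between arrays for 1 gene, not between genes. Slpi and Wfdc15b are highest in the unnumbered tumour of mouse 121 and in tumours 123 and 81, Wfdc12 in tumours 123 and 81, and Wfdc3 is above 5.6 in all 8 tumours.

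The differences of the other membrane serine proteases stayed close to 0 as well. Most of these genes were dim, with means below the median of all values, 4.43, in all 3 groups. A difference near 0 in a dim gene does not show stable expression. Of 23 measured, 0 rose and 0 fell against adjacent liver, 13 were higher, 2 had an unadjusted p under 0.05 (15.3% of all genes did) and the median was 0.02. Tmprss7 was at 0.34 (SE 0.24, adjusted p = 0.543) and Tmprss3 at -0.25 (SE 0.12, adjusted p = 0.316). Tmprss7 was highest in tumour 81, at 4.50, against 2.67 to 3.25 in the other tumours.

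Among 13 other Kunitz and serpin inhibitors 1 rose, 0 fell and 6 were higher, with a median of 0.00. Over all genes 0.155% passed in either direction. Of the 13, 4 had an unadjusted limma p under 0.05 (15.3% of all genes did). The gene that rose was App, the amyloid precursor, some forms of which carry a Kunitz domain. It averaged 8.84 ± 0.49 (SD, n = 6) in tumours and 7.25 ± 0.33 (SD, n = 5) in adjacent liver, a difference of 1.59 (SE 0.23, limma, adjusted p = 0.0237). The call was lost with a fixed replicate block for mouse (1.5, adjusted p = 0.146), without adjacent liver 124 (adjusted p = 0.0706), 123 (0.12), 1931 (0.0948) or 81 (0.0775), and without tumour 123 (0.0509). Against control App was at 1.51 and did not pass (adjusted p = 0.0652), but did with a random replicate block for mouse (1.46, adjusted p = 0.0387), without tumour 93 (1.59, adjusted p = 0.0246) and without tumour 90 (1.41, adjusted p = 0.048).

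Kazal inhibitors, small inhibitors of trypsin-like enzymes, held the largest single difference of these lists. Of 8 measured, 0 rose, 0 fell, 3 were higher and 2 had an unadjusted p under 0.05 (15.3% of all genes did), with a median of -0.05. Spink1, a trypsin inhibitor, differed by 3.42 (SE 0.69, adjusted p = 0.0634) and passed without tumour 93 (3.87, adjusted p = 0.0089), without tumour 90 (3.64, adjusted p = 0.0444), with a filter on dim genes, with array weights or with the unnumbered tumour of mouse 121 alone. It read 10.53, 9.27, 9.10 and 9.02 in the unnumbered tumour of mouse 121 and in tumours 123, 124 and 81. The other tumours read 5.34 to 6.75 and adjacent livers 3.84 to 5.91. Controls read 3.59 to 6.57, with control 10 the highest. Against control Spink1 differed by 2.87 (SE 0.81, adjusted p = 0.158), or by 3.67 without control 10 (adjusted p = 0.124). Without tumour 93 that difference was 3.32 and passed (adjusted p = 0.0442). Spink2 was at -0.25 (adjusted p = 0.205).

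Of 13 genes around hepatocyte growth factor, 0 rose and 0 fell, 5 were higher, 7 had an unadjusted p under 0.05 (15.3% of all genes did) and the median was -0.10. Klkb1, plasma prekallikrein, was at -1.14 (SE 0.45, adjusted p = 0.235), with tumour 81 lowest at 6.64. Plat, tissue plasminogen activator, was at 1.0 (SE 0.30, adjusted p = 0.138) and passed without tumour 93 (1.23, adjusted p = 0.0211). Hgf, the growth factor, and its receptor Met, both named after their values were seen, were at -0.98 (SE 0.25, adjusted p = 0.0929) and -0.83 (SE 0.23, adjusted p = 0.115), and both passed without tumour 93 (-1.07, adjusted p = 0.0445, and -0.95, adjusted p = 0.041). Hgf also passed with the unnumbered tumour of mouse 121 alone (-1.14, adjusted p = 0.0413). Plau, Plaur and Mst1r, also named after their values were seen, were higher in tumours than in adjacent liver. They were at 0.96 (SE 0.28, limma, adjusted p = 0.133), 0.89 (SE 0.35, adjusted p = 0.233) and 0.43 (SE 0.18, adjusted p = 0.259). Against control Hgf was at -0.96 (SE 0.29, adjusted p = 0.192) and Met at -0.54 (SE 0.27, adjusted p = 0.431).

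Among 10 measured substrates and junction proteins 0 rose, 0 fell, 5 were higher and 2 had an unadjusted p under 0.05 (15.3% of all genes did), with a median of 0.05. Cdh1, the adhesion protein E-cadherin, differed from adjacent liver by 2.37 (SE 0.55, adjusted p = 0.0759), with adjacent livers at 4.88 to 7.22, controls at 5.98 to 8.38 and tumours at 5.85 to 9.44. Scnn1a, the alpha subunit of the epithelial sodium channel that prostasin can activate, was at -1.82 (SE 0.37, adjusted p = 0.0634). It read 6.84 to 7.89 in control, 7.11 to 7.80 in adjacent liver and 4.14 to 6.90 in tumours. Both passed without tumour 93 (2.48, adjusted p = 0.0385, and -2.09, adjusted p = 0.00726). Scnn1a also passed with a random replicate block for mouse (-1.75, adjusted p = 0.0425), with the filter on dim genes, with array weights and with the unnumbered tumour of mouse 121 alone. Against control Cdh1 differed by only 0.89 (SE 0.64, limma, adjusted p = 0.606), or by 0.26 without control 10. Its adjacent liver differed from control by -1.48 (SE 0.66, limma, adjusted p = 0.999).

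**Figure D5:**
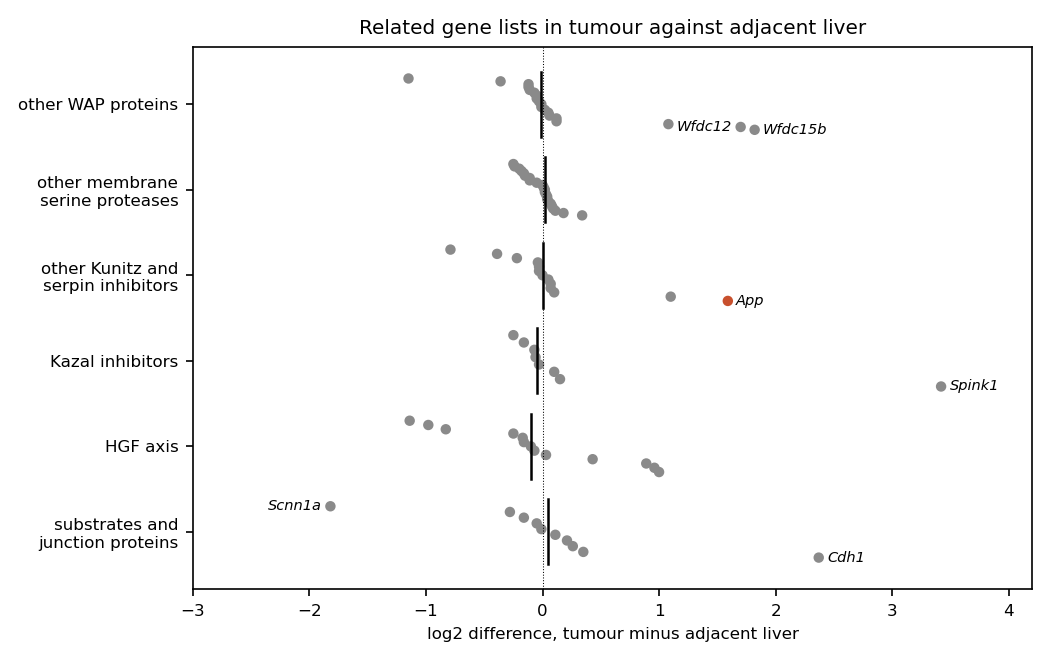
Log2 difference between tumour and adjacent liver (horizontal axis) of the genes in 6 related lists (rows); each point is a gene, the vertical bar is the list's median and the coloured point passed over all genes. Only App passed; list medians run from -0.10 to 0.05, with Spink1 at 3.42, Cdh1 at 2.37 and Scnn1a at -1.82.

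Markers of other cells that make these proteins were set beside the members. Of 13 measured cholangiocyte markers 0 rose, 0 fell and 9 were higher in tumours than in adjacent liver, as were 44% of all genes. Of the 13, 3 had an unadjusted p under 0.05 (15.3% of all genes did), and the median was 0.14. Their mean level was 4.22 to 4.50 in control, 4.12 to 4.47 in adjacent liver and 4.42 to 5.27 in tumours. Cdh1, named above, and Prom1, a membrane protein of progenitor-like cells, had the largest differences of the list, with Prom1 at 2.03 (SE 0.48, adjusted p = 0.0795; 4.19 to 7.47 in tumours, 2.83 to 4.52 in other livers) and Sox9, a duct transcription factor, at 0.89 (adjusted p = 0.151). The keratin Krt19 read at most 5.24 and Epcam, an epithelial adhesion protein, at most 5.32 in tumours, while Cftr, the chloride channel of bile ducts, stayed at 2.06 to 3.15 on all arrays. Of 14 neutrophil markers 0 rose, 0 fell, 9 were higher and 0 had an unadjusted p under 0.05, beside 44% higher and 15.3% over all genes. Their median was 0.08, with mean levels of 3.74 to 4.09 in adjacent liver and 3.81 to 4.67 in tumours. Lcn2, an iron-carrier binding protein that hepatocytes can also make, was at 1.85 (SE 0.96, adjusted p = 0.386) and S100a8 at 1.12 (SE 0.85, adjusted p = 0.581). S100a8 read 6.16, 6.07 and 6.04 in tumours 123, 81 and 90 and 3.51 to 4.55 in the other tumours. Ly6g, another marker of the list, read 2.61 to 3.27 on all arrays. It read 2.99 in control 10, where S100a8 was 8.71, so its low level does not show that neutrophils were absent. Hepatocyte markers (10 measured, median -0.06) averaged 11.64 to 11.88 in tumours and 11.78 to 11.92 in adjacent liver. Macrophage, stellate, endothelial and pancreatic acinar lists also had 0 passing (4 of 11, 7 of 12, 7 of 11 and 2 of 8 at an unadjusted p under 0.05, beside 15.3% of all genes), with medians of -0.36, 0.39, 0.00 and -0.01. The part of the cholangiocyte and neutrophil markers in the tumour values of the members was not tested.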

How the data were processed

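The deposited values are log2 expression values of one-colour arrays. The submitters' processing notes name RMA and Partek, with no version; Trizol extraction and isothermal (SPIA) amplification of the RNA are per the labels' protocols. Neither the chip model nor the build is given in the sources used here. RMA equalises array distributions, which removes global shifts and compresses dim genes. Of 24479 probe sets 23281 had 1 gene symbol, which gave 23279 genes. The 3 groups were fitted together in limma 3.58.1 (R 4.3.3) with an intensity trend, 1 value per mouse and tissue (14 values), and Benjamini-Hochberg adjustment over all genes; SE and intervals are those of this fit. The threshold was an adjusted p of 0.05. Two-sided exact permutation tests of single members were adjusted over 23 tests.

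The members, lists and rules were chosen with earlier results of these data known. By rule, named genes are all members, list genes that passed (otherwise the 2 with the largest absolute difference) and the 3 genes most like Wfdc3 and Prss8. Axin1, Hgf, Met, Plau, Plaur, Mst1r, Wfdc16, Wfdc21, the other single cell type markers and the named chromosome neighbours fall outside this rule. They were picked with results of these data known. Titles number the animals, so p-values reflect mouse-to-mouse spread. The main fit and the exact permutation tests took tumour and adjacent liver as independent, also in the 4 mice that gave both. Adjacent liver 1931 and tumour 93 were counted as 2 animals, although the numbers do not settle that. Tumour and adjacent liver of mice 121, 124, 123 and 81 come from the same animal, which pairs them; their deviations from the group means correlated at 0.0998, 0.0817, 0.0349 and 0.0994. Alternatives were other normalizations, a filter that kept 12864 genes above 4.43 on at least 3 arrays, no trend and array weights. Further ones were other treatments of mouse 121, the mouse as a block and each mouse-and-tissue value left out in turn. For a paired mouse, the value of its other tissue then stayed in the fit. The fit was tested on simulated data. Promoter sequences are RefSeq's (GRCm38.p6), and gene order on the chromosomes is from RefSeq. No scan date or slide was used here.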

Additional observations from a re-analysis of the deposited data

How the results depend on the processing

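Of 556 tested values of the 9 genes under alternatives, 529 kept direction and side of the threshold, 2 passed it and 25 changed sign; the sign changes concern Wfdc2, Slpi, Spint1, Spint2, St14, Tmprss2 and Hgfac. The untested tumour minus adjacent values ran from 1.91 to 2.26 for Wfdc3 and from 0.97 to 1.21 for Prss8, whose direction the choice of these genes fixes. With a random replicate block for mouse, Tmprss2 passed in tumour minus adjacent (1.38) and Spint2 was 0.03; with a fixed replicate block in the 4 paired mice, Wfdc2 was 0.33 and Spint2 0.16, and no other call of a member changed. In the same comparison quantile normalization gave Spint1 -0.01 and Spint2 0.00, median centring gave Spint1 -0.02, and 8 tumours as separate values gave Spint2 0.02. With 1 mouse-and-tissue value left out at a time, the ranges in tumour minus adjacent were -0.44 to 0.10 for Wfdc2 and -0.03 to 0.08 for Spint1. There they were -0.09 to 0.14 for Spint2 and 1.12 to 1.48 for Tmprss2. In tumour minus control they were -0.23 to 0.07 for Spint1 and 0.00 to 0.27 for Hgfac, and in adjacent minus control -0.66 to 0.16 for Slpi, -0.15 to 0.01 for St14, -0.24 to 0.05 for Spint1 and -0.55 to 0.43 for Tmprss2. The number of all genes that passed moved far more than the members did. In tumour minus adjacent it was 36, and 22 with quantile normalization, 16 with median centring, 181 with the filter on dim genes and 136 with array weights. It was 8 with only the groups compared, 87 with 8 separate tumours and 157 with the unnumbered tumour of mouse 121 alone. With the random and fixed replicate block it was 206 and 0, and with 1 mouse-and-tissue value left out 5 to 743 (743 without tumour 93). In tumour minus control it was 6, and 35 with the filter, 3 without the intensity trend and 31 with 8 separate tumours. It was 33 with the unnumbered tumour of mouse 121 alone and 24 with the random replicate block. With 1 mouse-and-tissue value left out it was 0 to 242 (0 without control 12, where limma gave 1993 at an unadjusted p under 0.05). In adjacent minus control it was 0 to 1. The list genes named by the rule, with Hgf, Met and Wfdc16, kept their call in 413 of 443 values. Of the rest 24 passed newly, 6 lost the call and 0 reversed. The causes were not tested. Spint1 is too dim for the filter and has no value there.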
